A study of Mus musculus with 6 samples.

Results

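The Hox genes encode homeodomain transcription factors and lie in 4 clusters (Hoxa, Hoxb, Hoxc and Hoxd). Their levels were read in aortas of apoe-/- mice with and without the adenosine A1 receptor gene Adora1. Of 38 Hox genes listed, 37 had a probe set annotated to them alone, among 19752 genes so represented and 25254 probe sets in all. Each of the 37 had exactly 1 such probe set, so levels played no part in choosing probe sets. Members were taken by gene name, but with earlier results of these data known. The probe set of Hoxb8 also names Hoxb7, so Hoxb8 is not analysed here. Cluster A had 10 measured members and clusters B, C and D had 9 each.

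RNA from the aortas of mice aged 20 weeks on a C57BL/6 background was hybridised to 6 Affymetrix whole-transcript arrays, 1 per sample. Both groups carried apoe-/-, and each had 3 arrays, numbered 1 to 3. The ApoE-KO group carried that knockout alone, and the DKO group carried adora1-/- in addition. The series text calls the comparison group Adora1 knockout, but each of its samples is labelled apoe-/- in title, source and genotype, and these labels were used. Nothing in the labels says that the 6 samples came from separate animals, so p-values measure the spread between these samples. The labels name no segment of the aorta, so no array can be placed along the vessel from them. Adora1 is not analysed here and could not check the labels, and the probe set of Apoe read 9.47, 9.64 and 10.04 (log2 intensity) in ApoE-KO and 9.39, 9.63 and 9.72 in DKO. With no wild-type array, the Apoe levels do not check the knockout shared by both groups.

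Hox genes are numbered by their order along the cluster, and genes with the same number in different clusters are paralogues. In the embryo, low-numbered genes are switched on earlier and nearer to the head, and high-numbered genes later and nearer to the tail, so that the combination of Hox genes in a cell records its level along the body axis. Adult smooth muscle cells and fibroblasts keep much of that record: the aortic arch, built largely from neural crest, carries a different Hox set from the descending aorta, which forms from mesoderm of the trunk. Hox proteins bind DNA together with TALE homeodomain partners of the Pbx and Meis families. Polycomb proteins hold silent Hox genes silent, trithorax proteins keep active ones active, and retinoic acid and Cdx factors help to set the initial pattern.

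The sequences below are the 250 bases before the start listed by RefSeq (GRCm38.p6) for the 4 members that had an entry and an unadjusted p under the threshold of 0.05 in the comparison of DKO with ApoE-KO. They are shown so that the upstream sequence of genes from 3 different clusters can be compared, and capitals mark each CG dinucleotide. The listed start of Hoxc4 lies inside that gene's annotated extent.
Hoxc4 (chr15:103034145-103034394, plus strand): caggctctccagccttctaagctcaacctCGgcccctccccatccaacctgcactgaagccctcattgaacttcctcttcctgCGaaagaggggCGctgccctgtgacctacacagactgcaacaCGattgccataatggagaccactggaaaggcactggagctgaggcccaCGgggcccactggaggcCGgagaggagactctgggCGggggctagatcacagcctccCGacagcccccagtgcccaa
Hoxd9 (chr2:74697513-74697762, plus strand): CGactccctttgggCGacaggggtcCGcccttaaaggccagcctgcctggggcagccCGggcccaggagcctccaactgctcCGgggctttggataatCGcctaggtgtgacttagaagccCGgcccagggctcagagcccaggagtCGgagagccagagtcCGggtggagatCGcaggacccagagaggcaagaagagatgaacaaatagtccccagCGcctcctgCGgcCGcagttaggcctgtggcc
Hoxa9 (chr6:52227371-52227620, minus strand): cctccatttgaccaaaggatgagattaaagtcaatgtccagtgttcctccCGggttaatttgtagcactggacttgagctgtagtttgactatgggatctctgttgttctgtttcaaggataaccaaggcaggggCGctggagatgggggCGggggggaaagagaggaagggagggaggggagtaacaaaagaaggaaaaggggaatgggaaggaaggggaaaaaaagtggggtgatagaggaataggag
Hoxa6 (chr6:52208673-52208922, minus strand): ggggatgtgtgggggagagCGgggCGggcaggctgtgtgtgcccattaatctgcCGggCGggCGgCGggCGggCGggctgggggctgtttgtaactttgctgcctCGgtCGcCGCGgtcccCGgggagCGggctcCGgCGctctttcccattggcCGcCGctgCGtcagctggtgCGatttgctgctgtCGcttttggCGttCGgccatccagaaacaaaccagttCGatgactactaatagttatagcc
The 4 stretches held 8, 13, 3 and 24 CG in that order. Of the 37 members, 21 had an entry, with 23 promoters between them, and these held a median of 13 CG (2 to 35) against a median of 6 over all 32851 promoters of the same length. The motif TGATNNAT, the form bound by Hox and Pbx together, was found on either strand in 3 of the 23 Hox promoters (13%) and in 7.68% of all. The Meis motif TGACAG was found in 2 of 23 (8.70%) against 15.9%, CCAAT in 13 of 23 (56.5%) against 33.8%, and TATAAA in 3 of 23 (13%) against 12.4%. Matches of different motifs may overlap, and each motif was counted on its own. Among the printed sequences only that of Hoxa6 held any of the 4 motifs, 1 CCAAT at position -101 from the start.

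Most Hox genes read lower in DKO than in ApoE-KO aortas. The mean was lower in DKO in 31 of the 37 members, against 50.7% of all probe sets, and the median difference (DKO minus ApoE-KO, log2) was -0.14, with members from -0.71 to 0.12, against -0.0024 over all probe sets. The median over the members was -0.15, -0.17 and -0.17 in the pairs of arrays numbered 1, 2 and 3 (SD 0.02 over the pairs). In whole tissue, fewer cells of a type and less RNA per cell cannot be told apart, and this holds for every difference below.

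No Hox gene passed the test without pairing (limma with Benjamini-Hochberg adjustment, threshold 0.05, smallest adjusted p among members 0.767), and neither did any of the 25254 probe sets (0.00%), of which 1419 (5.62%) had an unadjusted p under 0.05 in either direction. At an unadjusted p under 0.05, 9 of the 37 members were lower and 0 higher, against 2.68% of all probe sets lower. With the replicate number as a block, a pairing taken from the shared deviations of same-numbered arrays, 1 member passed, Hoxc6, which fell (limma, adjusted p = 0.0467), against 0.0792% of all probe sets passing as lower and 0.174% in either direction. In that fit 18 members had an unadjusted p under 0.05, each of them lower in DKO, against 6.10% of probe sets lower and 16.2% in either direction. The 3 DKO arrays all lay below the 3 ApoE-KO arrays in 11 members, against 6.47% of all probe sets, and all above them in 0 members, against 5.55%. The difference was below 0 in all 3 pairs in 24 members, against 19.1%. These counts are descriptions, with no test over the members, which share samples and lie side by side on the chromosomes.

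**Figure D1:**
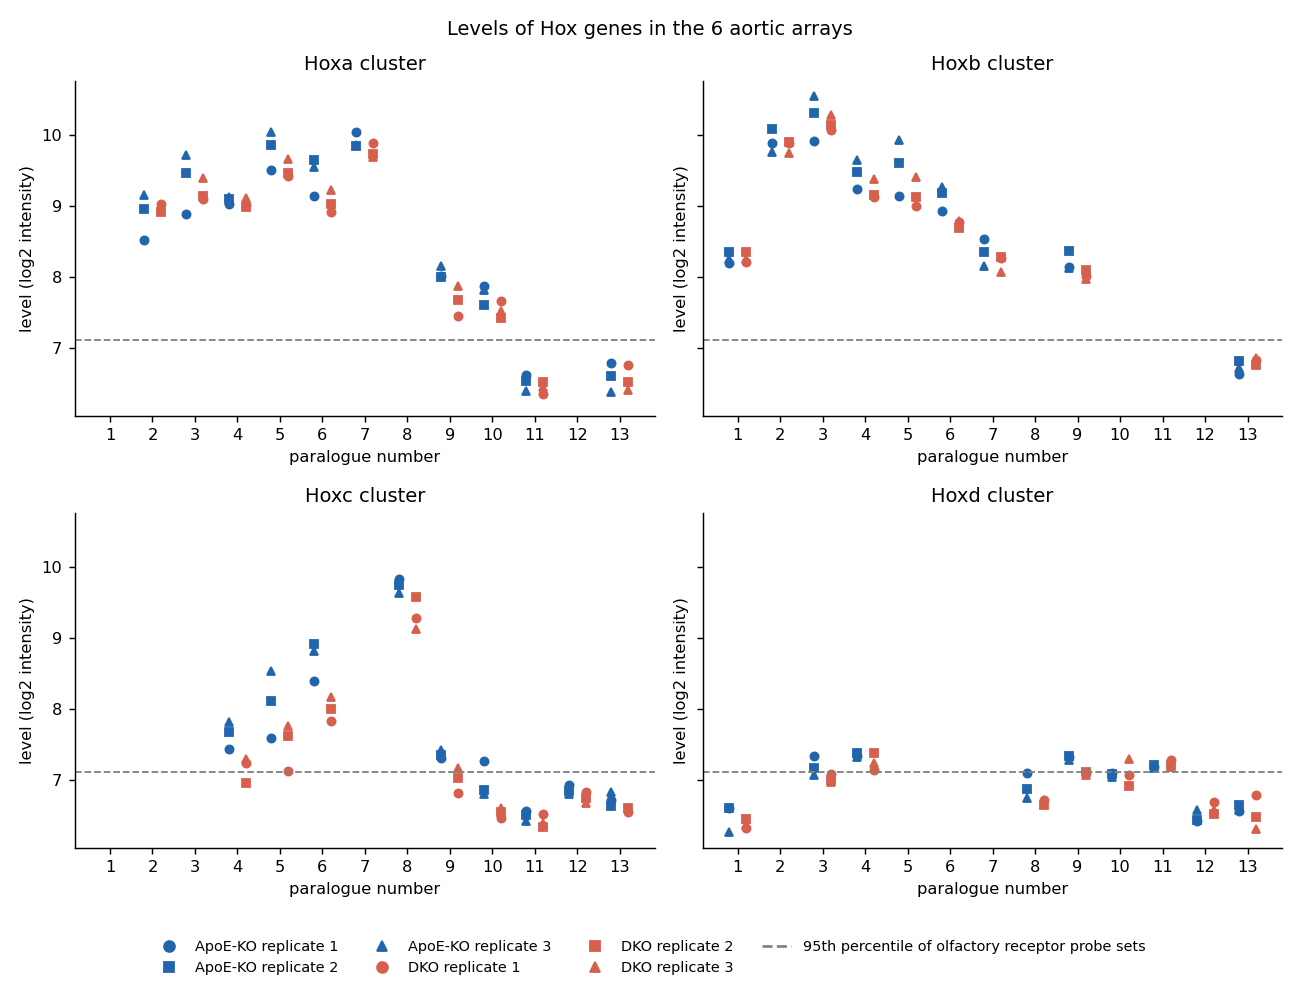
Level (log2 intensity) of each measured Hox gene in each of the 6 arrays, by cluster and paralogue number; blue points are ApoE-KO and red points DKO, and the dashed line is the 95th percentile of olfactory receptor probe sets (7.12). Members above the line lie mainly at paralogue numbers 1 to 10 of clusters A and B and 4 to 9 of cluster C. All DKO points lie below all ApoE-KO points for Hoxc4, Hoxc6, Hoxc8 and Hoxc9, among others, while those of Hoxc5 overlap.

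Since probe sets differ in brightness for reasons unrelated to the amount of RNA, the levels of different genes were not set against one another, only against a background. That background was the 95th percentile, 7.12, of the mean levels of 1030 probe sets for olfactory receptors, which are mostly silent outside the nose. By their mean over the 6 arrays, 24 of the 37 Hox genes lay above it: 8 of 10 in cluster A, 8 of 9 in cluster B, 5 of 9 in cluster C and 3 of 9 in cluster D. By paralogue number, 5 of 7 members numbered 1 to 3, 13 of 14 numbered 4 to 8 and 6 of 16 numbered 9 to 13 lay above it. At the tail end of the clusters, of the 9 members numbered 11 to 13, Hoxd11 alone did, at 7.18 to 7.21 in ApoE-KO and 7.19 to 7.29 in DKO. The median difference was -0.23 over the 24 members above the background (21 of them lower in DKO) and -0.08 over the other 13 (10 lower). Some annotated extents overlap, namely Hoxa3 with Hoxa4, Hoxa5 and Hoxa6, Hoxb3 with Hoxb4, Hoxd3 with Hoxd4, and Hoxd10 with Hoxd11, and whether probes tell such neighbours apart was not tested.

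The genes in the middle of the clusters, paralogues 4 to 8, read lower in DKO, as did the 4 paralogues numbered 9 described below. All 14 had a mean below ApoE-KO and a difference below 0 in each of the 3 pairs, against 19.1% of all probe sets, with a median of -0.33 and pair medians of -0.19, -0.35 and -0.35. In 5 of the 14 every DKO array lay below every ApoE-KO array, against 6.47%. Some pair differences were close to 0, such as -0.01 for Hoxa4 in pair 1 and -0.00 for Hoxd4 in pair 2.

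Hoxc6, which helps to set the identity of spinal motor neurons at the level of the forelimb, read 8.40, 8.91 and 8.82 in ApoE-KO against 7.83, 8.0 and 8.17 in DKO. Every DKO array lay below every ApoE-KO array. The means were 8.71 ± 0.27 and 8.0 ± 0.17 (SD, n = 3 each), a difference of -0.71 (95% interval -1.07 to -0.35 without the block), which makes the DKO level 0.611 of the ApoE-KO level. The pairs differed by -0.57, -0.91 and -0.65. It passed with the block (limma, adjusted p = 0.0467) and not without it (adjusted p = 0.767). The call rested on the pairs together: with the block the adjusted p in limma was 0.298 without the replicate 2 arrays, 0.0639 without the replicate 3 arrays, 0.0106 without the replicate 1 arrays, and 0.438 in the unmoderated linear model.

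The neighbours of Hoxc6 on the same cluster showed the next largest differences. Hoxc5, expressed in the embryo from the neck downward, read 7.59, 8.11 and 8.53 in the ApoE-KO arrays and 7.13, 7.63 and 7.77 in the DKO arrays, with pair differences of -0.46, -0.48 and -0.77. The groups overlapped, since ApoE-KO replicate 1 lay below DKO replicates 2 and 3. The mean difference was -0.57, with a 95% interval of -1.18 to 0.04 without the block and -0.77 to -0.37 with it. It did not pass with the block (limma, adjusted p = 0.0585). Without ApoE-KO replicate 3 it was -0.34 and without DKO replicate 1 it was -0.38. Hoxc4, which also activates the antibody-diversifying enzyme AID in B cells, read 7.44, 7.68 and 7.82 in the ApoE-KO arrays and 7.25, 6.96 and 7.30 in the DKO arrays. The groups did not overlap, and the difference was -0.48 (95% interval -0.78 to -0.17 without the block, and limma adjusted p = 0.124 with it).

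Hoxc8, a patterning gene of the thoracic vertebrae and ribs, read 9.83, 9.74 and 9.63 in ApoE-KO against 9.28, 9.58 and 9.13 in DKO. Again the groups did not overlap, with ApoE-KO replicate 3 and DKO replicate 2 only a little apart. The difference was -0.40 (95% interval -0.71 to -0.10 without the block, and limma adjusted p = 0.118 with it). Over these 4 Hoxc genes the median difference was -0.52.

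In cluster B, Hoxb6, active in the lateral mesoderm of the embryo's trunk, read 8.93, 9.18 and 9.27 in the ApoE-KO arrays and 8.78, 8.69 and 8.79 in the DKO arrays. Its groups did not overlap, and it differed by -0.37 (95% interval -0.62 to -0.12 without the block, and limma adjusted p = 0.129 with it). Hoxb5, a gene of trunk mesoderm and of the enteric neural crest, read 9.14, 9.60 and 9.93 in the ApoE-KO arrays and 9.0, 9.12 and 9.40 in the DKO arrays, a difference of -0.38 with overlapping groups. The overlap came from ApoE-KO replicate 1, which lay below DKO replicate 3, and the difference was -0.19 without ApoE-KO replicate 3 and -0.59 without ApoE-KO replicate 1. In cluster A, Hoxa6 read 9.14, 9.65 and 9.55 in ApoE-KO against 8.91, 9.03 and 9.23 in DKO, a difference of -0.39. There too ApoE-KO replicate 1 lay inside the DKO range.

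The remaining paralogues of this class differed less. Hoxa5, needed for the lung and the neck vertebrae, differed by -0.29 and Hoxb4, an expander of blood stem cells, by -0.24. Hoxa7 and Hoxb7 each differed by -0.14, Hoxd4 by -0.09 and Hoxa4 by -0.04. Hoxd8, the 1 member of the class that did not lie above background, differed by -0.22 with groups that did not overlap. Without the replicate 1 arrays and with the block, 6 members passed in limma, namely Hoxa5, Hoxb5, Hoxb6, Hoxc4, Hoxc5 and Hoxc6, against 0.554% of all probe sets passing as lower in that fit. With the replicate 3 arrays left out instead, 0 members passed against 0.111% of all probe sets as lower, and with the replicate 2 arrays left out 0 members passed.

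**Figure D2:**
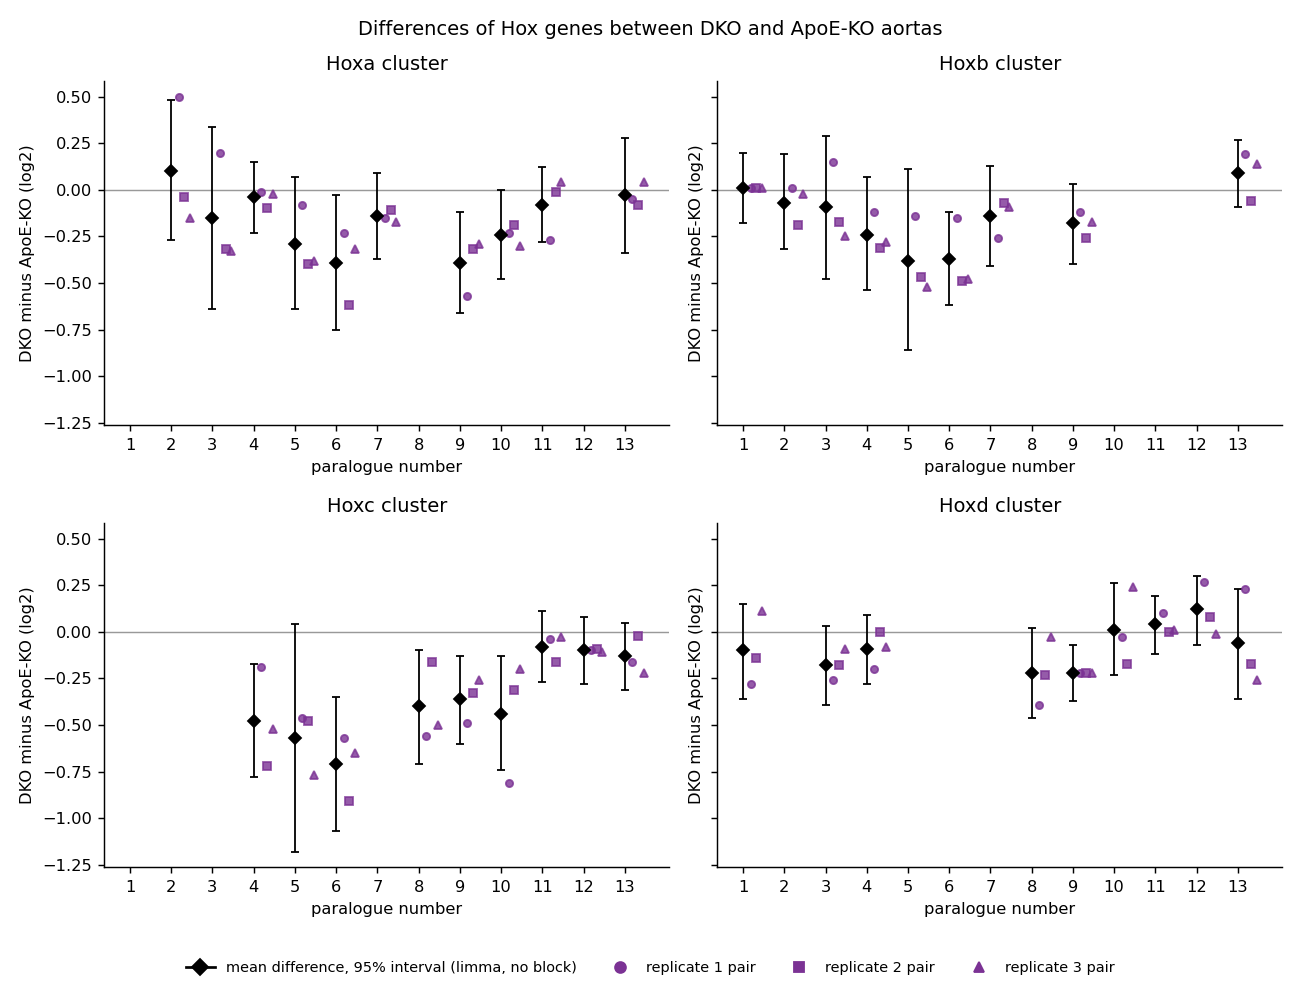
Difference between DKO and ApoE-KO (log2) for each Hox gene by cluster and paralogue number; black diamonds are mean differences with 95% intervals from limma without the block, and purple points are the 3 pairs of same-numbered arrays. The differences are most negative at Hoxc4 to Hoxc6 and near 0 at paralogue numbers 11 to 13, where Hoxd11 alone lay above the olfactory background.

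The head-end genes, paralogues 1 to 3, had a median difference of -0.09, with 5 of 7 lower in DKO and groups that overlapped in all 7. Hoxa3, which shapes the third pharyngeal arch and its artery, the thymus and the parathyroid, read 8.89, 9.46 and 9.72 in the ApoE-KO arrays and 9.10, 9.14 and 9.39 in the DKO arrays. The pairs pointed both ways, at 0.20, -0.32 and -0.33, and the mean of -0.15 turned to 0.03 without ApoE-KO replicate 3. Hoxa2, the selector gene of the second pharyngeal arch, differed by 0.10, with pairs at 0.50, -0.04 and -0.15. Hoxb1, active in the hindbrain and in heart progenitors, differed by 0.01 in each pair. Hoxb2 stood at -0.07, Hoxb3 at -0.09, Hoxd1 at -0.10 and Hoxd3 at -0.18.

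The tail-end genes, paralogues 9 to 13, also had a median of -0.09, with 12 of 16 lower, against a median of -0.0024 and 50.7% over all probe sets. By their means only 6 of the 16 lay above the olfactory background, so low signal limits this median. Those 6 differed by -0.39 (Hoxa9), -0.36 (Hoxc9), -0.24 (Hoxa10), -0.22 (Hoxd9), -0.18 (Hoxb9) and 0.04 (Hoxd11). All 4 paralogues numbered 9 had DKO arrays below every ApoE-KO array, against 6.47% of all probe sets, with a median of -0.29. Hoxa9, a regulator of blood stem cells and of endothelial migration, read 8.02, 8.0 and 8.16 in the ApoE-KO arrays and 7.46, 7.68 and 7.87 in the DKO arrays. The means were 8.06 ± 0.09 and 7.67 ± 0.21 (SD, n = 3 each) and differed by -0.39 (95% interval -0.66 to -0.12 without the block, and limma adjusted p = 0.102 with it). Hoxc9, which specifies thoracic motor neurons, read 7.32, 7.36 and 7.43 in ApoE-KO against 6.83, 7.03 and 7.17 in DKO. Its DKO arrays lay around the olfactory background, and the difference was -0.36 (95% interval -0.60 to -0.13 without the block, and limma adjusted p = 0.112 with it).

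Hoxd9, a gene of the lumbar and hindlimb region, read 7.33, 7.35 and 7.29 in the ApoE-KO arrays and 7.11, 7.12 and 7.07 in the DKO arrays. The levels lay close to the background of 7.12, and each pair differed by -0.22 (limma with the block, adjusted p = 0.197). Hoxb9 differed by -0.18. Hoxa10, needed in the uterus and the lumbar vertebrae, read 7.88, 7.61 and 7.82 in the ApoE-KO arrays and 7.66, 7.42 and 7.52 in the DKO arrays, a difference of -0.24 with groups that overlapped. Hoxd10 differed by 0.01, with pairs at -0.03, -0.17 and 0.24.

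Hoxc10, a gene of the lumbar spinal cord and the hindlimb, read 7.28, 6.86 and 6.81 in ApoE-KO against 6.47, 6.55 and 6.61 in DKO. Its groups did not overlap, but 5 of the 6 arrays lay below the olfactory background, and the difference of -0.44 was -0.81 in pair 1 against -0.31 and -0.20 in the others. The 9 members numbered 11 to 13 differed by -0.13 (Hoxc13) to 0.12 (Hoxd12).

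By cluster, the Hoxc genes stood lowest in DKO. All 9 were lower in each of the 3 pairs, against 19.1% of all probe sets. Their median was -0.40, with pair medians of -0.46, -0.31 and -0.26, and groups did not overlap in 6 of the 9. By their means 5 of the 9 lay above the olfactory background. Hoxc10 and Hoxc13, whose groups did not overlap, were not among these 5. Clusters A and B had medians of -0.14 each, with 1 of 10 and 2 of 9 members not overlapping, and cluster D had a median of -0.09 with 2 of 9. In cluster D only 3 of the 9 lay above the olfactory background, so low signal limits its median. Of its 2 members without overlap, Hoxd9 lay above the background and Hoxd8 did not. Over all probe sets the DKO arrays lay below every ApoE-KO array in 6.47%, so the 1 of 10 of cluster A is near that share. Whether the clusters differ from one another was not tested, since a test over members would treat neighbouring genes as replicates.

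**Figure D3:**
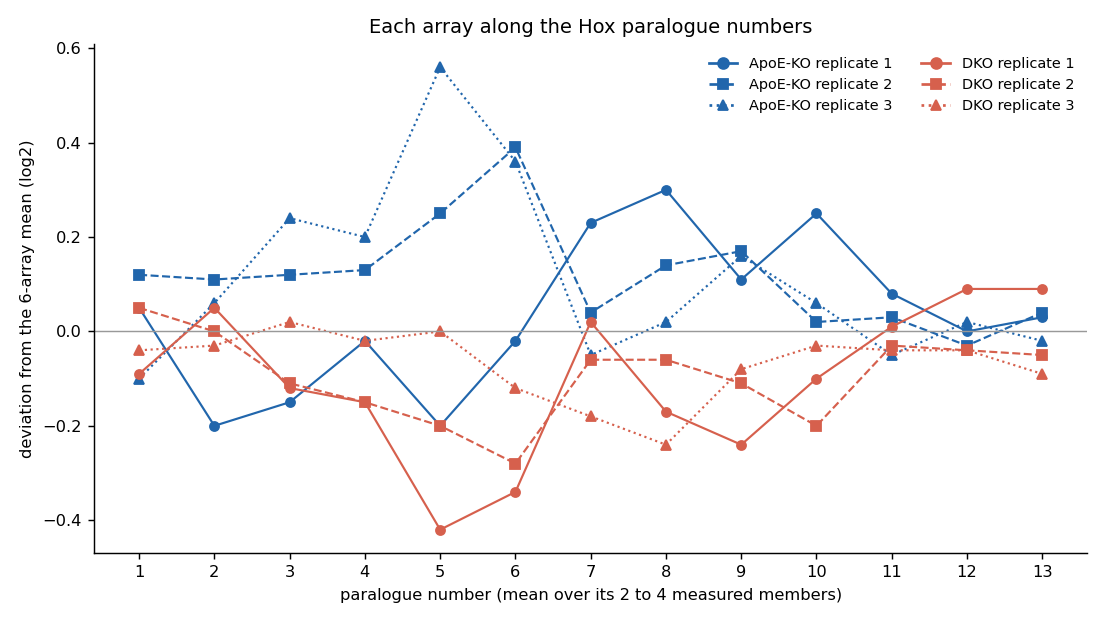
Deviation of each array from the 6-array mean (log2), averaged over the 2 to 4 measured paralogues of each number; blue lines are the 3 ApoE-KO arrays and red lines the 3 DKO arrays. The ApoE-KO and DKO lines are separate at numbers 6, 8, 9 and 10 and mix or meet at the others.

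The arrays also differed within each group, and their order was not the same in the 3 paralogue classes. Whether this depends on the paralogue number was not tested, and of the 16 members numbered 9 to 13 only 6 lay above the olfactory background. The mean deviation from the 6-array mean over paralogues 4 to 8 was 0.02, 0.20 and 0.25 in ApoE-KO replicates 1, 2 and 3 and -0.23, -0.16 and -0.09 in DKO. ApoE-KO replicate 1 was thus the lowest of its group there, and above each DKO array. Over paralogues 9 to 13 the same arrays stood at 0.10, 0.06 and 0.04 in the ApoE-KO arrays and -0.04, -0.09 and -0.06 in the DKO arrays. Over paralogues 1 to 3 they stood at -0.11, 0.12 and 0.09 in the ApoE-KO arrays and -0.06, -0.03 and -0.01 in the DKO arrays, where ApoE-KO replicate 1 was the lowest of all 6. At paralogue number 5 the arrays ran from -0.42 in DKO replicate 1 to 0.56 in ApoE-KO replicate 3, and ApoE-KO replicate 1 and DKO replicate 2 both stood at -0.20. Across the 37 members the highest of the 6 values fell in an ApoE-KO array in 11, 7 and 13 members (replicates 1, 2 and 3) and in a DKO array in 3, 1 and 2. The lowest fell in a DKO array in 12, 7 and 9 members and in an ApoE-KO array in 6, 0 and 3.

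Markers of other tissues differed between the arrays as well, and their part in the Hox differences was not tested. The 7 smooth muscle markers were all above background, and their summed intensity was 15.79 to 15.95 (log2) in ApoE-KO and 15.87 to 15.97 in DKO. White adipocyte markers were lower in DKO in 7 of 8, with sums of 13.19, 13.90 and 13.65 in ApoE-KO against 12.76, 13.50 and 13.14 in DKO, which overlap, and Lep alone was not above background. Of these, Retn, which encodes the adipokine resistin, fell by 1.53 and Cidec, a lipid droplet gene, by 0.74 with the block (limma, adjusted p = 0.0226 and 0.0467). Brown adipocyte markers were lower in 6 of 7, with a median of -0.28 and sums of 12.11, 12.48 and 12.84 in ApoE-KO against 11.93, 12.62 and 12.22 in DKO, which overlap, and Elovl3 alone was not above background. Ucp1, the uncoupling protein of brown fat, differed by -0.58 and Elovl3, a fatty acid elongase, by -0.76, and 0 of the 7 passed in either fit (limma). Lymphatic endothelium markers were lower in 6 of 6, with sums of 11.85, 12.31 and 12.12 in the ApoE-KO arrays and 11.33, 11.78 and 11.78 in the DKO arrays, which do not overlap, and with Prox1 not above background. Lyve1, a lymphatic vessel receptor, fell by 0.61 with the block (limma, adjusted p = 0.0309). Mesothelium markers, from the lining of the body cavities, were higher in 5 of 5, with sums of 9.71, 9.67 and 10.05 in the ApoE-KO arrays and 10.29, 10.82 and 10.49 in the DKO arrays. In 4 of the 5 every DKO array lay above every ApoE-KO array, against 5.55% of all probe sets. The largest difference was that of Upk3b, 1.44, which did not pass with the block (limma, adjusted p = 0.0758). Lrrn4, at 0.80, was the 1 that passed with the block (limma, adjusted p = 0.0467). Of 5 fibroblast markers, 2 were lower and 3 higher in DKO, with a median of 0.03. Their sums were 14.93, 15.17 and 14.92 in ApoE-KO against 14.82, 15.14 and 15.07 in DKO, which overlap. Fat and fibroblasts carry Hox codes of their own, which depend on their place in the body.

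Markers of some neighbouring tissues were high in the arrays of 1 replicate number in both groups, or in 1 array. Lung epithelium markers summed to 14.51 in ApoE-KO replicate 3 and 13.84 in DKO replicate 3, against 9.91 to 10.02 in the other 4 arrays. The median Hox difference was -0.14 with all arrays and -0.17 without both replicate 3 arrays, where the difference of Hoxc6 was -0.74 and did not pass with the block (limma, adjusted p = 0.0639). Heart muscle markers summed to 10.93, 11.51 and 11.99 in ApoE-KO against 10.90, 11.19 and 11.63 in DKO, lowest in both replicate 1 arrays. Skeletal muscle markers, lower in DKO in 6 of 6, summed to 10.22, 10.36 and 11.26 in ApoE-KO against 10.21, 10.14 and 10.93 in DKO, highest in both replicate 3 arrays, with Myh4, Myh1 and Mylpf not above background. Markers of chromaffin cells and sympathetic neurons summed to 10.92 in ApoE-KO replicate 3 against 9.80 to 9.96 elsewhere, with 4 of 7, Dbh, Chgb, Slc18a1 and Slc18a2, not above background by their means. Of the adrenal cortex markers 6 of 8 were not above background, and of the kidney markers 3 of 6.

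**Figure D4:**
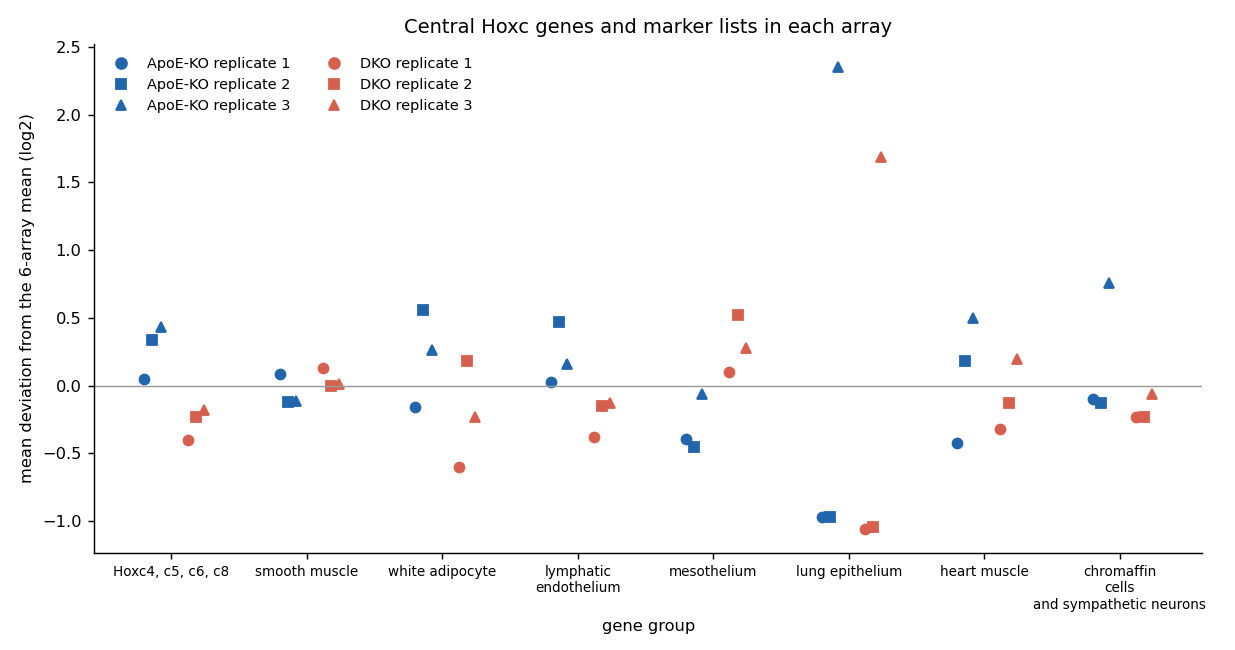
Mean deviation of each array from the 6-array mean (log2) for Hoxc4, Hoxc5, Hoxc6 and Hoxc8 together and for 7 marker lists; blue points are ApoE-KO and red points DKO, with the shape giving the replicate number. The Hoxc genes, the lymphatic markers and the mesothelium markers separate the groups, while the lung markers separate the replicate 3 arrays (2.35 and 1.69) from the rest.

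The clusters also hold microRNA genes that target Hox transcripts among others. The mature forms below are shown with bases 2 to 8, the seed that pairs with targets, in capitals, from RefSeq (GRCm38.p6), to show which of them share a seed.
miR-10a-5p: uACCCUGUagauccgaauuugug
miR-10b-5p: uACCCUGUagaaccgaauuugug
miR-196a-5p: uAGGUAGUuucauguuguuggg
miR-196b-5p: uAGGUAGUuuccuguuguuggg
miR-615-3p: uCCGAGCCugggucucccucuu
The miR-10 pair shares the seed ACCCUGU and the miR-196 pair the seed AGGUAGU. Of 8 noncoding RNAs of the clusters that had a probe set, 6 were lower and 2 higher in DKO, with a median of -0.14, and 0 passed in either fit. By their means, 6 of the 8 were not above the olfactory background. Mir615, which lies within Hoxc5 on the same chromosome, read 8.97, 8.85 and 8.90 in the ApoE-KO arrays and 8.62, 8.56 and 8.57 in the DKO arrays. Its groups did not overlap, and the difference was -0.32 (95% interval -0.50 to -0.15 without the block, and limma adjusted p = 0.0885 with it). Whether its probe set reads the microRNA or the transcript of Hoxc5 cannot be told apart. Mir196a-1 and Mir10a in cluster B each differed by -0.28 and Mir196b in cluster A by -0.18, all below background. Hoxaas2, an antisense RNA of cluster A, stood the other way, at 7.95, 8.38 and 8.67 in the ApoE-KO arrays and 8.44, 8.60 and 8.86 in the DKO arrays (0.30).

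Genes beside the clusters read lower in DKO about as often as higher. Of 11 measured neighbours 5 were lower and 6 higher in DKO, with a median of 0.10, and 0 passed in either fit. Calcoco1, a selective autophagy receptor whose gene lies next to Hoxc13, stood at 10.95, 10.77 and 10.70 in ApoE-KO against 11.36, 11.16 and 10.88 in DKO (0.33; limma with the block, adjusted p = 0.101). At the other end of that cluster, beside Hoxc4, Smug1, a DNA repair glycosylase, differed by 0.15 and Cbx5, which encodes heterochromatin protein HP1 alpha, by 0.14. Skap2, an adaptor protein gene next to cluster A, differed by 0.14.

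The partners and regulators of Hox genes showed no member passing in either fit (limma, without or with the block). Of the TALE partners, 8 of 9 listed were measured, all above background, with 5 lower and 3 higher, a median of -0.00 and differences from -0.15 to 0.12. Meis2 differed by 0.12, Meis3 by -0.15, Pknox2 by 0.07 and Pbx4 by -0.05. Of 19 measured genes of retinoic acid handling and Cdx, 15 were lower and 4 higher, with a median of -0.08. Stra6, the retinol uptake receptor, read 8.37, 8.30 and 8.34 in the ApoE-KO arrays and 8.08, 8.10 and 8.16 in the DKO arrays (-0.22), and Crabp2, which carries retinoic acid to the nucleus, differed by -0.31 and the retinoid receptor gene Rxrg by -0.25. Dhrs3, which reduces retinal back to retinol, stood higher in DKO by 0.19. Cdx2 and Cdx4, which help to start the trunk Hox genes in the embryo, were not above background.

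Of 17 measured Polycomb genes 7 were lower and 10 higher, with a median of 0.02. Of the Cbx subunits, which read methylated histone tails, Cbx7 read 10.66, 10.68 and 10.66 in the ApoE-KO arrays and 10.93, 10.89 and 10.84 in the DKO arrays (0.22), while Cbx2 read 9.37, 9.48 and 9.27 against 9.03, 9.17 and 9.13 (-0.26). Both were without overlap, which makes 1 of the 17 higher and 1 lower. These are near the shares over all probe sets, 5.55% higher and 6.47% lower. Cbx8 differed by 0.03 with overlapping groups. Rnf2, the ubiquitin ligase subunit, differed by 0.20 and Ezh2, the H3K27 methyltransferase, by 0.13. Of 9 trithorax and H3K27 demethylase genes 4 were lower and 5 higher, with a median of 0.02. Kdm6a, an H3K27 demethylase, differed by 0.24 and the subunits of the H3K4 methyltransferase complexes Dpy30, Ash2l and Rbbp5 by 0.27, 0.20 and -0.13.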

How the data were processed

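Aortic RNA from 3 ApoE-KO and 3 DKO samples was measured on whole-transcript arrays. The authors deposited log2 intensities of 25254 probe sets; RMA, Partek and the build mm9 are named in the submitters' processing notes, without versions. The series text lists a microarray batch as a second factor of the study's ANOVA, but no label identifies it, and whether it was taken out of these values is unknown here. Medians of the arrays lay between 8.01 and 8.02, correlations between arrays between 0.983 and 0.995, and the number of arrays limits the precision. The smallest p of an exact permutation test with these group sizes is 0.1.

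Genes were named from the platform annotation where a probe set names 1 gene (21496 probe sets; 1565 name several and 2193 none), keeping the probe set with the highest mean. The test was limma's (version 3.58.1, R 4.3.3; lmFit and eBayes, trend on intensity) for DKO minus ApoE-KO over every probe set, two-sided, with Benjamini-Hochberg adjustment over all probe sets and a threshold of 0.05. The calls were tested on simulated data with 200 changed probe sets. At a log2 change of 0.5, 0 of the 200 were recovered in either fit. At a change of 1.0, 141 were recovered without the block and 160 with it. Differences of 0.5 or less can therefore go uncalled with these group sizes. In the data larger ones went uncalled too. Retn at -1.53 did not pass without the block (limma, adjusted p = 0.368), nor did Upk3b at 1.44 with it (limma, adjusted p = 0.0758). The first fit had no pairing, since no label says what a replicate number shares. Deviations from the group means of same-numbered arrays correlated at 0.60, 0.50 and 0.64 over all probe sets, so the data, not the labels, are the ground for pairing by number. Blocked values stand beside each named gene whose side of the adjusted threshold they change. For other genes they are given in some cases only.

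The members and the gene lists were chosen with earlier results of these data known. Values in all 6 arrays are given for each member passing in either fit, for the 10 members with the smallest unadjusted p without pairing and for the 6 with the largest range over the arrays, which makes 13. Pathway lists name up to 4 genes by smallest unadjusted p, and marker lists up to 2 by range; the noncoding RNAs of the clusters and Apoe were added after the annotation was seen, and Cbx8 was named after its value was seen. Sequences were matched to RefSeq tables by symbol, never by coordinates, since the builds differ. Alternatives were the block, unmoderated models, eBayes without trend or robust, array weights, renewed quantile normalization, median centring, filters at the 40th and 60th percentile, and arrays left out.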

Additional observations from a re-analysis of the deposited data

How the results depend on the processing

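Without pairing, 0 probe sets passed, and the replicate block gave 44, with 1 Hox member among them. The unmoderated model without the block passed 1 probe set and 0 members. Leaving out 1 array at a time gave 0 to 8 probe sets (8 without DKO replicate 3), 0 members passing, a median Hox difference of -0.18 to -0.12 and 30 to 32 members lower in DKO. With the block, leaving out the replicate 1 arrays gave 415 probe sets and 6 members passing, leaving out the replicate 3 arrays gave 48 and 0, with a median of -0.17, and leaving out the replicate 2 arrays gave 0 and 0. Without the block and without the replicate 3 arrays, a setting chosen after seeing the data, the median was also -0.17. Above the 40th percentile of the mean, 19 members were tested, with 17 lower and a median of -0.24, and above the 60th percentile 12 were tested, with 11 lower and a median of -0.19. Of 248 values of the 13 fully described members under the alternatives, 241 kept their direction and side of the threshold, 6 passed where the unpaired fit did not, and 1 reversed, Hoxa3, at 0.03 without ApoE-KO replicate 3 (-0.38 to 0.03 over the arrays left out). The mean of all probe sets of a gene gave the same values, since each member has 1. Differences near or below the olfactory background are limited by low signal.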

Other observations

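Factors of the heart and outflow tract, which pattern the parts of the vessel nearest to the heart, were higher in DKO in 12 of 18 measured genes and lower in 6, with a median difference of 0.06. Tbx20, a transcription factor of the developing heart, read 7.62, 7.84 and 8.01 in ApoE-KO against 8.64, 8.75 and 8.71 in DKO, and rose by 0.88 with the replicate block (limma, adjusted p = 0.0294), while it did not pass without the block (adjusted p = 0.368). The other 17 passed in neither fit. Gata6, a factor of vascular smooth muscle and the outflow tract, differed by 0.16 and Hand1, a factor of heart chambers and the placenta, by -0.15, both with groups that did not overlap (over all probe sets 5.55% were higher and 6.47% lower without overlap), and Mef2c, a muscle transcription factor, by 0.22. Hox genes and these factors were measured in the same arrays, so their differences are not independent of one another.

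Homeobox genes of mesoderm outside the Hox clusters read slightly lower in DKO in 14 of 17 and higher in 3, with a median of -0.06, and 0 passed in either fit. En1 and Irx2 each differed by -0.15 and Alx4 by -0.10, with groups that did not overlap, which makes 3 of the 17, against 6.47% of all probe sets lower without overlap, and Pitx1, a factor of hindlimb identity, by -0.12.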
